A study of Mus musculus with 4 samples.

Results

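Interferon-stimulated genes are the genes that cells switch on after sensing interferon. The 36 described here were a fixed list, read by symbol, and all 36 were among the 31053 features counted in each library. They comprise 18 antiviral effectors (such as the Ifit genes, Isg15 and Bst2), 3 sensors or sensor partners (Ifih1, Zbp1, Trim25), 4 transcription factors (Irf1, Irf7, Irf9, Stat2), the feedback enzyme Usp18, 3 IFITM membrane proteins and 7 interferon-induced GTPases. Their levels are given over the cell classes of mouse tibial bone marrow, before and after whole-body irradiation, with and without deletion of Vegfc, the gene of a growth factor for blood and lymphatic vessels.

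Type I interferons bind the receptor chains Ifnar1 and Ifnar2, and the kinases at that receptor activate Stat2. It joins Irf9 in a complex that binds the interferon-stimulated response element (ISRE) in target promoters. Interferon-gamma acts through Ifngr1 and Ifngr2 on promoters with the gamma-activated site (GAS), and it induces Irf1 and many of the GTPases. Usp18 and Socs1 are induced in turn and dampen the signal.

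Single-cell RNA was captured from 4 libraries of C57Bl/6JCrl mice, 1 for each pairing of genotype and irradiation. Both genotypes had Vegfc flox/flox alleles. Those called Vegfc-deleted also had Rosa26-CreERT2, a tamoxifen-dependent Cre recombinase made in most tissues, so the deletion was not aimed at 1 cell type. The labels give 5 tamoxifen doses at 7 to 8 weeks of age to both genotypes in 1 passage and limit tamoxifen to a part of the samples in another. Irradiated mice received 4 Gy 2 weeks after tamoxifen and marrow was taken on day 7. Each library is a pool, of 3 mice without irradiation and of 2 with it. Mice were injected with a VE-cadherin antibody, marrow was digested, and DAPI-, Lin-, CD45-, Ter119- cells were sorted, so blood cells in the data are those that escaped the gate. With 1 library per group there was no replicate, no test was made, and intervals (95%) cover counting error alone, not differences between mice or preparations.

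The libraries held 54462123 to 77284922 UMIs (unique molecular identifiers, 1 per captured transcript) in 5134 to 7737 barcodes, of which 3837 to 5211 cells were kept. Pairs of libraries shared 13 to 117 barcodes. Vegfc itself measured 171 CPM (UMIs per 1000000 UMIs of a class) in LepR+ stromal cells of the non-irradiated control and 18.3 CPM in those of its Vegfc-deleted counterpart, and 175 and 22.9 CPM with irradiation. Both Vegfc-deleted libraries were thus low, although which exons are deleted was not used here. Cells were clustered and named from marker genes. In that order, endothelial cells numbered 318, 384, 1618 and 757, and LepR+ stromal cells, the perivascular cells that make most niche factors, 1139, 733, 460 and 187. Values below keep this order of the 4 libraries. All levels are CPM. The 8 endothelial markers summed to 6857, 6060, 7671 and 7017 CPM in the endothelial class, and the 8 LepR+ markers to 40110, 37680, 44070 and 36720 CPM in the LepR+ class. The non-irradiated and irradiated cells of these classes lay mostly in different clusters (2 against 11 for LepR+, 9 against 0 for endothelial cells). RNA of other cells differed between the libraries too. Haemoglobin and granule transcripts in the LepR+ class made up 9106, 10100, 2389 and 5555 CPM, and neutrophil markers there 133, 428, 158 and 2500 CPM. The part of this RNA in the results was not tested.

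The promoters of the members were searched for ISRE and GAS cores. Whether a match acts as a site was not tested. RefSeq windows of 300 bases (250 before to 50 after the start of transcription, build GRCm38.p6, the mm10 assembly) were matched by symbol for 28 of the 36 members. An ISRE core, searched as GAAA, any 2 bases and GAAA again on either strand, was found in 17 of 28 members (60.7%), against 3.99% of 27025 genes with a window. A GAS core, TTCNNNGAA, which reads the same on both strands, was found in 8 of 28 (28.6%), against 9.55% of genes. The cores can overlap, 6 members held both, and 9 held neither. Below are the last 150 bases before the start for 6 members that differed in site content and in their levels, with capitals marking ISRE and GAS cores.

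The first 3 hold ISRE cores without GAS. Ifit1 (chr19:34640739-34640888, plus strand) has a pair of ISRE cores 104 and 85 bases before the start:
Ifit1: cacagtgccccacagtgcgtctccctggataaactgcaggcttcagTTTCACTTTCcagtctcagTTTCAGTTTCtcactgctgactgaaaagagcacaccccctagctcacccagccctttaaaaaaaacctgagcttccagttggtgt
Isg15 (chr4:156200819-156200968, minus strand) has 3 overlapping ISRE cores starting 78, 72 and 66 bases before the start:
Isg15: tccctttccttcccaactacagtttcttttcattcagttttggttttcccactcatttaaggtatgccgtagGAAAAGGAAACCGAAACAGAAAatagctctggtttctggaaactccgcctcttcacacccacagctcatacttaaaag
Gbp2 (chr3:142620513-142620662, plus strand) has 1 ISRE core 59 bases before the start:
Gbp2: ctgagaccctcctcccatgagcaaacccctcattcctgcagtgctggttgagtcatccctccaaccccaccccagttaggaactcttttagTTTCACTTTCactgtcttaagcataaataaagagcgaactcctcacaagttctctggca

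The next pair holds both kinds of core. Igtp (chr11:58199406-58199555, plus strand) has a GAS core 45 bases and an ISRE core 34 bases before the start:
Igtp: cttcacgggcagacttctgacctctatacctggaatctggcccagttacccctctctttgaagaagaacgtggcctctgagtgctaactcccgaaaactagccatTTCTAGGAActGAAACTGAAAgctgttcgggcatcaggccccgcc
Bst2 (chr8:71537473-71537622, minus strand) has a GAS core 136 bases before the start that runs into ISRE cores at 130 and 124 bases:
Bst2: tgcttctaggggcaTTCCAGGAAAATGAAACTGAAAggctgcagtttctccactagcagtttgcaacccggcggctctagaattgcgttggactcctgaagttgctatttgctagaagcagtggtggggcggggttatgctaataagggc
Irf1 (chr11:53769864-53770013, plus strand) holds a GAS core 90 bases before the start and no ISRE core in its window:
Irf1: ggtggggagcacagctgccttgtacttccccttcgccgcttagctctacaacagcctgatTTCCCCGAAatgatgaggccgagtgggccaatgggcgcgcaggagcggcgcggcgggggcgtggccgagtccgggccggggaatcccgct

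Irradiated control mice had higher levels of most members in LepR+ stromal cells. The sum of 16 antiviral genes (the antiviral core: Ifit1, Ifit2, Ifit3, Ifit3b, Isg15, Irf7, Rsad2, Usp18, Oasl2, Oas1a, Oas2, Rtp4, Cmpk2, Mx1, Ifi44, Zbp1) was 438 CPM (425 to 451), 629 CPM (609.6 to 649), 1096 CPM (1066 to 1128) and 1453 CPM (1392 to 1515). Both irradiated libraries were above both non-irradiated ones, and within each treatment the Vegfc-deleted library was above its control. In endothelial cells the same sum was 289.6 CPM (271 to 309), 395 CPM (375 to 415), 464 CPM (454 to 475) and 531 CPM (513 to 549), the same order over a narrower range. The levels of single members are drawn by class and library, and those of the core as points.

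**Figure D1:**
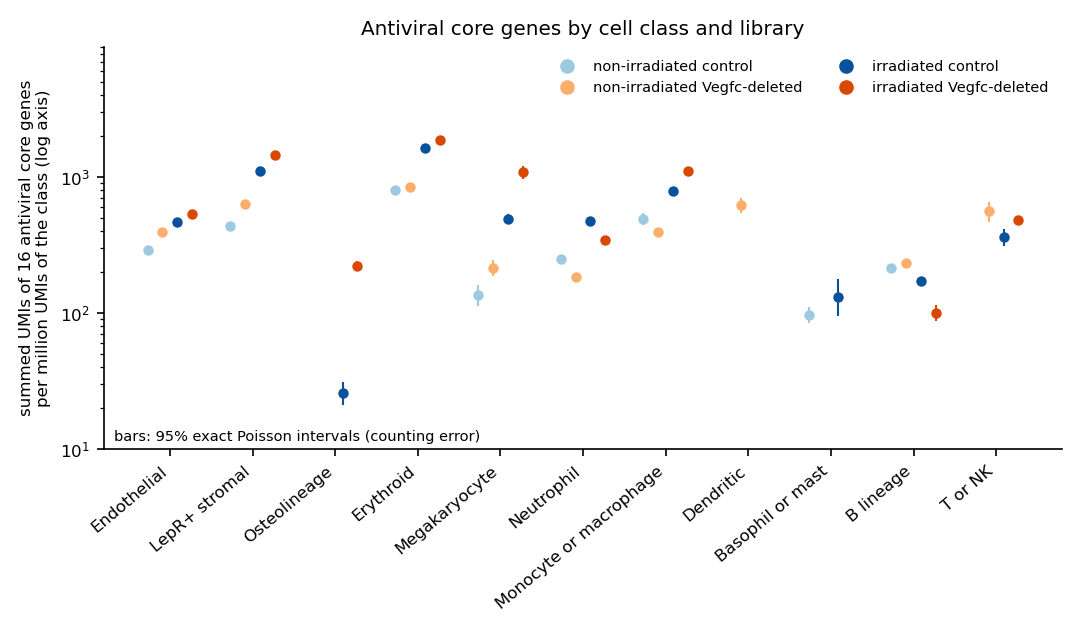
Summed level of the 16 antiviral core genes (vertical axis, CPM on a log scale) in each cell class (horizontal axis), 1 point per library with exact Poisson intervals. LepR+ stromal cells run from 438 CPM to 1453 CPM, endothelial cells from 289.6 CPM to 531 CPM, and the B lineage from 234 CPM down to 100.5 CPM.

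A member counts as higher or lower after irradiation when its CPM ratio passed 1.5-fold in that direction, among genes with at least 30 counts over the pair of libraries. In LepR+ cells of controls, 34 of 36 members reached that count, 30 were higher and 3 lower, with a median log2 ratio of 1.11, while 19.2% of all 11760 genes were higher, 10.3% lower and their median was 0.17. In Vegfc-deleted mice, 33 members reached it, 25 were higher and 2 lower, with a median of 0.86, against 19.9% higher and 12.6% lower of all genes and a median of 0.14. In endothelial cells of controls 16 of 32 were higher and 2 lower (median 0.58), against backgrounds of 18.3% and 8.71% and a median of 0.18 over all genes. In endothelial cells of Vegfc-deleted mice 12 of 32 were higher and 2 lower (median 0.42), against 15.2% and 8.27% and a median of 0.15. The non-irradiated side of this pair includes 32 cells of cluster 0, which held 377 of its 1505 core UMIs. Within cluster 0 alone 2 of 32 members were higher and 15 lower (median -0.51), against 21.2% and 15.2% of genes. The members that missed the minimum in LepR+ cells were Oas1a and Oas2 in both genotypes and Mx1 in the Vegfc-deleted pair. Scaling by TMM lowered the LepR+ median in controls to 0.89 with 28 members higher.

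Nearly the whole set of antiviral effectors was higher in irradiated LepR+ cells. Of the 18, 16 reached the minimum in controls and 16 were higher (median log2 ratio 1.19), and 14 of 15 were higher in Vegfc-deleted mice. Ifit1, an RNA-binding protein that blocks translation of foreign transcripts, measured 34.3, 56.8, 163 and 187 CPM. With irradiation it was 4.76-fold higher (4.19 to 5.42) in the control pair of libraries and 3.29-fold higher (2.80 to 3.86) in the Vegfc-deleted pair. Ifit3, of the same gene family, measured 13.7, 32.1, 58.3 and 89.0 CPM, with ratios of 4.27 (3.47 to 5.28) and 2.78 (2.21 to 3.48). Ifit3b, its close copy, measured 3.58, 11.6, 25.2 and 22.3 CPM. The 3' ends of Ifit3 and Ifit3b share 4.47% and 8.30% of their 31-base words with other genes, so a small part of their reads could be assigned to either.

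Isg15, a ubiquitin-like protein that is joined to other proteins and also secreted, measured 146, 181, 305 and 500.4 CPM in LepR+ cells. The irradiated Vegfc-deleted library was the highest, and the ratios were 2.09 (1.94 to 2.25) and 2.76 (2.51 to 3.03). Oasl2, of the family that senses double-stranded RNA, measured 35.8, 47.1, 89.0 and 109 CPM, with ratios of 2.48 (2.15 to 2.87) and 2.30 (1.89 to 2.80). Bst2, known as tetherin because it holds budding virus at the cell surface, measured 252, 384, 488 and 647.5 CPM, with ratios of 1.94 (1.83 to 2.05) and 1.69 (1.56 to 1.82). For these genes, as for Ifit1 and Ifit3, the non-irradiated Vegfc-deleted library stood between the non-irradiated control and the irradiated libraries. Mx1 was sparse. Its ratio in controls rested on 2 counts before and 62 after irradiation (72.1-fold, 19.1 to 608), with 33.9% of the 62 in 1 cell.

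Several effectors rested partly on single LepR+ cells. Ifit2 measured 11.5, 11.4, 23.9 and 17.5 CPM, and 31.1% of its irradiated control UMIs were in 1 cell. Without the highest cell of each library its log2 ratio went from 1.05 to 0.57 in controls and from 0.64 to 0.57 in Vegfc-deleted mice, at or just under 1.5-fold. Eif2ak2, the kinase PKR, went from 0.60 to 0.40 in Vegfc-deleted mice, under the limit. Rsad2 (viperin), which makes a chain-terminating nucleotide, measured 35.0, 37.9, 62.6 and 67.5 CPM, but 1 cell held 38.1% of its UMIs in irradiated controls and 59.0% in irradiated Vegfc-deleted mice. Without the highest cell of each library its levels were 31.1, 31.4, 38.9 and 27.9 CPM, and the share of LepR+ cells with a Rsad2 UMI was 15.9%, 12.1%, 8.26% and 7.49%. The summed level was thus higher in the irradiated libraries while fewer cells held Rsad2 there. Erythroid cells, with 388, 368, 996 and 776 CPM of Rsad2, had their markers in the LepR+ class at 6583, 6979, 1460 and 2048 CPM, and the part of that RNA was not tested. Ifi27l2a, a small mitochondrial protein, measured 4.75, 4.97, 33.1 and 575 CPM. In the irradiated Vegfc-deleted library 794 of its 853 UMIs were in 1 cell, which held 63028 UMIs in all, with 1959 from LepR+ markers, 2367 from neutrophil markers and 0 from endothelial markers. Without the highest cells Ifi27l2a was 3.49, 4.02, 26.3 and 41.6 CPM.

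**Figure D2:**
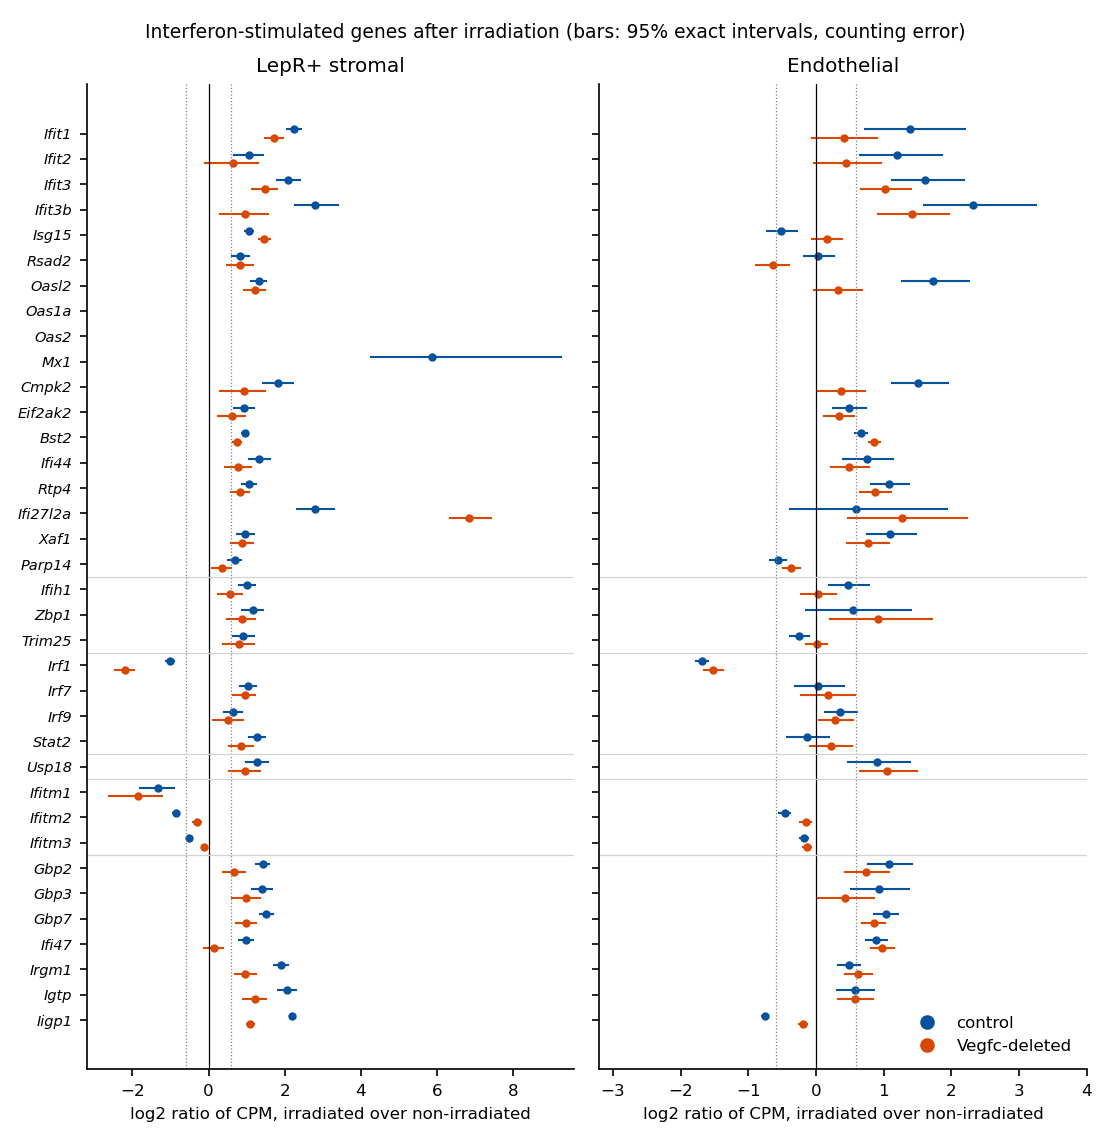
Log2 ratio of CPM after irradiation (horizontal axis) for each member (rows, by role) in LepR+ stromal and endothelial cells, 1 point per genotype with exact intervals. In LepR+ cells the Ifit genes and GTPases lie right of 0 in both genotypes, while Irf1 (-1.02 and -2.20) and Ifitm1 (-1.34 and -1.85) lie left of it.

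In endothelial cells Ifit3 and Ifit3b passed 1.5-fold in both genotypes, Ifit1 and Ifit2 in controls, and Isg15 in neither. Of the 15 effectors that reached the minimum, 11 were higher in controls (median log2 ratio 1.08) and 6 in Vegfc-deleted mice (0.45). Ifit3b measured 4.43, 10.2, 22.8 and 27.6 CPM, with ratios of 5.15 (3.04 to 9.51) and 2.70 (1.90 to 3.92). Ifit3 measured 10.4, 21.8, 32.3 and 44.3 CPM, with ratios of 3.09 (2.18 to 4.54) and 2.04 (1.59 to 2.63). Ifit1 measured 5.70, 14.4, 15.2 and 19.3 CPM, with ratios of 2.68 (1.66 to 4.58) and 1.34 (0.965 to 1.88), the second reaching 1. The non-irradiated levels of Ifit1 rested on few cells: the highest cell held 61.1% of the control UMIs and 43.6% of the Vegfc-deleted ones, and without it the levels were 2.23 and 8.17 CPM. Ifit2 measured 8.23, 13.4, 19.3 and 18.3 CPM, with ratios of 2.34 (1.57 to 3.64) and 1.37 (0.978 to 1.95). Isg15 measured 66.5, 67.4, 46.7 and 75.6 CPM, so the irradiated control was the lowest library and the irradiated Vegfc-deleted the highest. Its ratios were 0.703 (0.603 to 0.821) and 1.12 (0.961 to 1.31). Without the highest cell the control log2 ratio went from -0.51 to -0.19, as 22.4% of the non-irradiated control UMIs were in 1 cell.

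Bst2 was 346, 416, 551 and 755.5 CPM in endothelial cells, in the same order of libraries as in LepR+ cells, with ratios of 1.59 (1.49 to 1.70) and 1.82 (1.72 to 1.93). Parp14, an ADP-ribosyltransferase, was an effector on the other side: 226, 233, 153 and 181 CPM, with ratios of 0.677 (0.624 to 0.737) and 0.777 (0.712 to 0.850). In LepR+ cells Parp14 measured 72.0, 90.4, 115.5 and 115 CPM, so its irradiated levels were above the non-irradiated ones there and below them in endothelium.

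Among the sensors, Ifih1 (MDA5, which detects long double-stranded RNA) measured 37.7, 53.6, 76.1 and 78.9 CPM in LepR+ cells, Zbp1 (a sensor of left-handed nucleic acid) 20.7, 33.7, 46.2 and 61.4 CPM, and Trim25 (the ligase that activates RIG-I) 24.4, 29.0, 45.9 and 49.9 CPM. All 3 were higher in irradiated controls and 2 of 3 in irradiated Vegfc-deleted mice, Ifih1 falling just short at 1.47-fold (1.18 to 1.82). In endothelium 0 of 3 were higher in controls and 1 of 3, Zbp1, in Vegfc-deleted mice, from 5.51 to 10.5 CPM.

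The transcription factors split. In LepR+ cells Stat2 measured 36.3, 47.6, 87.8 and 86.3 CPM (ratios 2.42, 2.09 to 2.79, and 1.81, 1.46 to 2.24). Irf7, the factor that amplifies interferon production, measured 38.2, 51.2, 78.1 and 98.5 CPM (2.04, 1.76 to 2.37, and 1.93, 1.57 to 2.35). Irf9, the DNA-binding partner of Stat2, measured 35.4, 35.9, 54.95 and 51.3 CPM (1.55, 1.31 to 1.83, and 1.43, 1.08 to 1.86). Irf1 went the other way at 442, 434, 219 and 94.4 CPM, with irradiation ratios of 0.494 (control, 0.461 to 0.530) and 0.217 (Vegfc-deleted, 0.182 to 0.258). The non-irradiated libraries held nearly equal Irf1 and the irradiated Vegfc-deleted library the least.

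In endothelial cells Irf7 (24.1, 22.03, 24.8 and 24.9 CPM) and Stat2 (33.9, 34.4, 31.1 and 40.02 CPM) had irradiation ratios whose intervals included 1 in both genotypes. Irf9 measured 54.1, 52.2, 69.6 and 63.8 CPM, with ratios of 1.29 (1.09 to 1.52) and 1.22 (1.03 to 1.46). Irf1 measured 488, 313, 152 and 109 CPM, with ratios of 0.312 (0.293 to 0.332) and 0.350 (0.318 to 0.385). Among the 32 endothelial members with enough counts, these were the lowest ratios in both genotypes.

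Usp18, which removes Isg15 from proteins and blocks the type I receptor, measured 18.2, 25.8, 43.9 and 49.9 CPM in LepR+ cells and 14.2, 16.3, 27.0 and 34.0 CPM in endothelial cells. Its ratios were 2.41 (1.964 to 2.96) and 1.93 (1.45 to 2.56) in LepR+ cells, and 1.89 (1.39 to 2.63) and 2.09 (1.57 to 2.82) in endothelium. Usp18 was thus higher in both irradiated libraries of both classes.

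The IFITM genes, whose proteins block fusion of virus with the cell membrane, were not higher in the LepR+ class as a whole. Ifitm1 measured 29.3, 49.9, 11.5 and 13.5 CPM (ratios 0.391, 0.285 to 0.528, and 0.271, 0.163 to 0.425). Ifitm2 measured 754, 709, 419 and 577 CPM (0.556, 0.528 to 0.585, and 0.813, 0.755 to 0.875). Ifitm3 measured 1953, 2114, 1375 and 1940 CPM (0.704, 0.684 to 0.724, and 0.918, 0.881 to 0.956). In both irradiated libraries each of the 3 was below its non-irradiated counterpart, and 2 of 3 passed 1.5-fold in controls and 1 of 3 in Vegfc-deleted mice. In cluster 15, the LepR+ cluster with cells of all libraries (135, 135, 61 and 52), the direction turned for Ifitm2 (100.3, 177, 345 and 605 CPM) and Ifitm3 (382, 562, 991 and 1785 CPM). In endothelium Ifitm2 was 468, 486.5, 340.0 and 437 CPM, Ifitm3 was 1032, 1207, 913 and 1100 CPM, and neither passed 1.5-fold. Ifitm1 had 4, 4, 9 and 17 counts there, too few for a ratio. Ifitm2 shares 28.3% and Ifitm3 13.6% of 31-base words at their ends with other genes, among them each other, so their split is uncertain.

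The interferon-induced GTPases, which act on the membranes around intracellular pathogens, included the member whose order of libraries was opposite in the classes, Iigp1. All 7 were higher in LepR+ cells of irradiated controls (median log2 ratio 1.52) and 6 of 7 in irradiated Vegfc-deleted mice (0.98), Ifi47 being the exception at 57.6, 102.5, 114 and 113 CPM. Igtp measured 23.2, 42.7, 97.3 and 98.5 CPM, with ratios of 4.19 (3.57 to 4.92) and 2.31 (1.87 to 2.83). Gbp2, a guanylate-binding protein, measured 54.9, 59.3, 147 and 94.4 CPM, with ratios of 2.68 (2.39 to 3.00) and 1.59 (1.30 to 1.94). Igtp overlaps Irgm2 on the same strand, so their reads may be shared. Iigp1 measured 263, 485, 1204 and 1040 CPM in LepR+ cells, with ratios of 4.58 (4.37 to 4.80) and 2.14 (2.01 to 2.28). In endothelial cells Iigp1 had the reverse order, 1354, 1009, 804 and 884 CPM, with ratios of 0.594 (0.574 to 0.614) and 0.876 (0.841 to 0.913). The level in LepR+ cells was therefore below that in endothelial cells before irradiation and above it after, in both genotypes.

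The other endothelial GTPases did not follow Iigp1. Gbp2 measured 28.2, 27.8, 59.8 and 46.7 CPM there, with ratios of 2.12 (1.71 to 2.67) and 1.68 (1.34 to 2.12). Igtp measured 39.6, 45.6, 59.0 and 68.1 CPM (1.49, 1.24 to 1.81, and 1.49, 1.25 to 1.79), and Ifi47 measured 119, 102, 220.5 and 202 CPM (1.85, 1.66 to 2.06, and 1.97, 1.76 to 2.21). Over the class, 4 of 7 GTPases were higher in each genotype, and Iigp1 was lower by over 1.5-fold in controls.

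**Figure D3:**
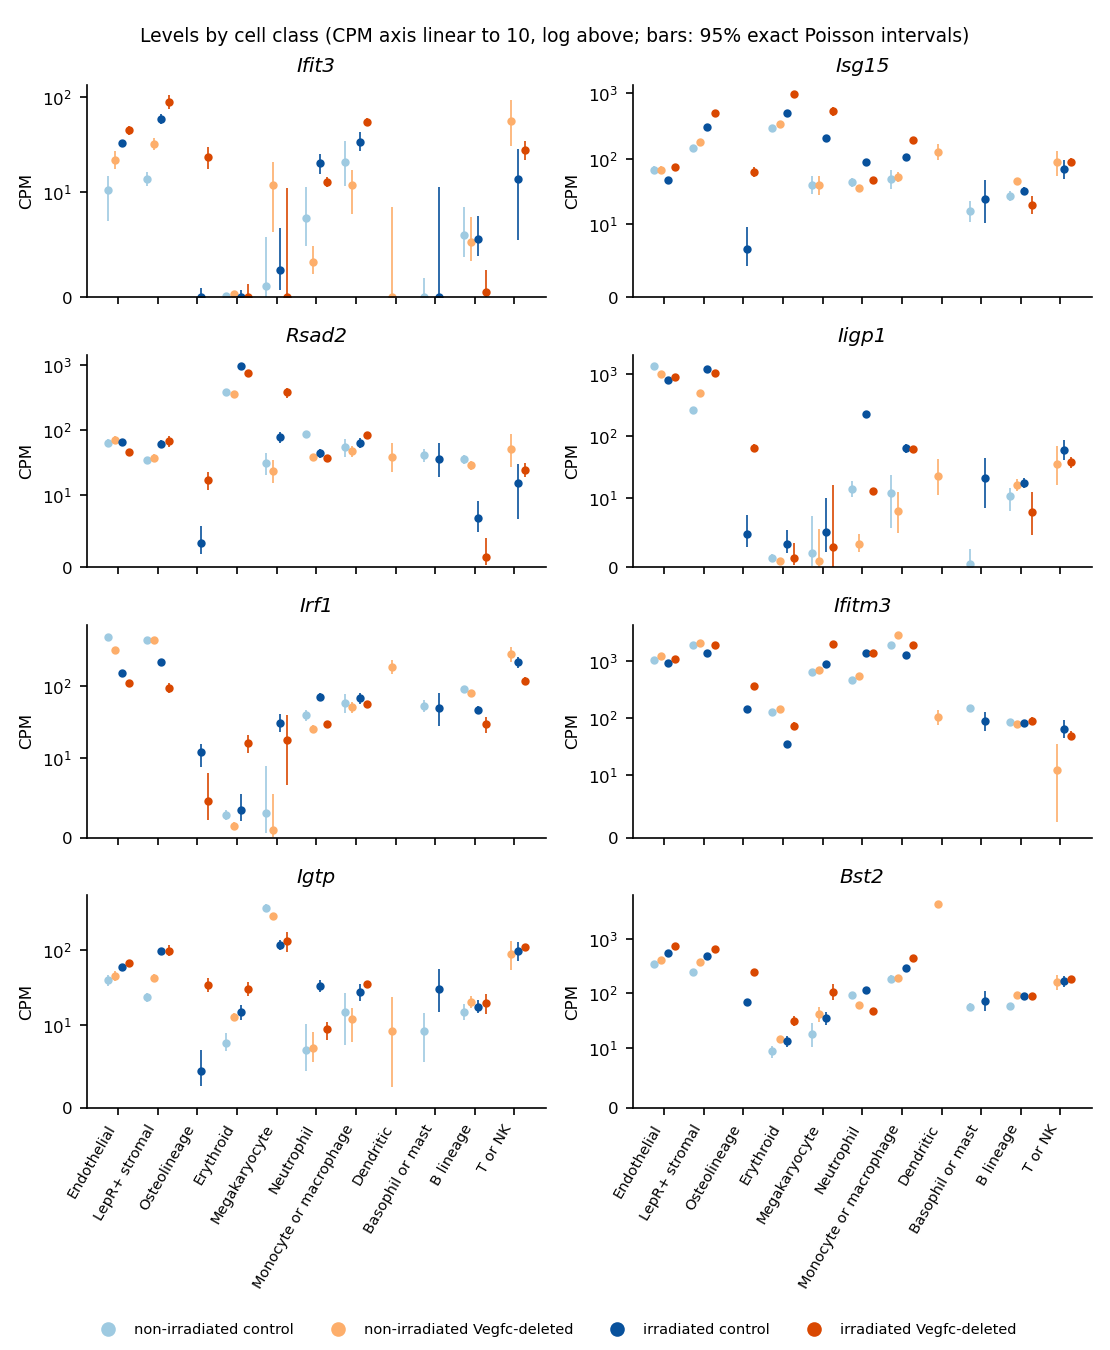
Levels of single members (CPM) by cell class and library. Iigp1 is high in endothelial cells of all 4 libraries (804 to 1354 CPM) and in LepR+ cells of the irradiated ones (1040 and 1204 CPM).

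Deletion of Vegfc was compared within each treatment. These comparisons use the same libraries as those of irradiation, so the 4 sets of ratios are not independent. Without irradiation, 13 of 34 members were higher and 0 lower in LepR+ cells of Vegfc-deleted mice, with a median log2 ratio of 0.46, against 3.17% of all genes higher and a median of -0.01. The 13 included 8 effectors, 3 GTPases, Zbp1 and Ifitm1. Ifit3b had a ratio of 3.22 (2.14 to 4.93), Ifit3 of 2.35 (1.88 to 2.94), Ifi44 of 2.08 (1.73 to 2.50) and Iigp1 of 1.84 (1.75 to 1.94). The Irf1 ratio was 0.981 (0.935 to 1.03). Within the main non-irradiated LepR+ cluster (cluster 2, 1000 and 595 cells) 15 of 34 members were higher, with a median of 0.45. Of all genes in that cluster 3.14% were higher, with a median of -0.01. Neutrophil markers in the class were 133 and 428 CPM in these libraries, while LepR+ markers and haemoglobin and granule RNA were nearly level.

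With irradiation, 3 of 34 members were higher and 3 lower in LepR+ cells of Vegfc-deleted mice, with a median of 0.12, against 9.54% of genes higher, 12.6% lower and a median of -0.07. Leaving out the highest cell of each gene brought that median to -0.001, whereas thinning each cell to 1500 UMIs gave 0.41 with 9 of 28 members higher. Those higher were Ifi27l2a, set by the cell described above, Isg15 at 1.64-fold (1.498 to 1.79) and Ifit3 at 1.53-fold (1.23 to 1.89). Without the highest cells Ifit3 was 51.2 and 70.3 CPM, a log2 ratio of 0.45 that no longer passed, as 29 of its 132 UMIs in the Vegfc-deleted library were in 1 cell. Those lower were Irf1 (0.432, 0.359 to 0.516), Gbp2 (0.642, 0.531 to 0.772) and Mx1 (0.387, 0.160 to 0.810, from 62 and 8 counts). The log2 ratio after irradiation was lower in the Vegfc-deleted pair than in the control pair for 28 of 33 members, by a median of -0.41, and the interval of the difference lay below 0 for 16 and above 0 for 4. Over all 10651 genes with enough counts, 54.7% had the lower ratio in the Vegfc-deleted pair, by a median of -0.07, with intervals below 0 for 16.8% and above 0 for 14.6%. The Vegfc-deleted pair started from the higher non-irradiated levels given above, which enter this difference.

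In endothelial cells without irradiation 8 of 31 members were higher in Vegfc-deleted mice and 1, Irf1, was lower (median 0.20), against 5.55% and 4.66% of genes and a median of 0.02. This rested largely on 32 cells of the Vegfc-deleted library that fell in cluster 0, the cluster of irradiated endothelium. Their core level was 1567 CPM (1413 to 1733), against 304 CPM in the 330 cells of cluster 9 and 275 CPM in the 292 control cells of that cluster. In cluster 9 alone 3 of 31 were higher and 2 lower, with a median of 0.05, against 5.03% and 4.89% of genes. In cluster 0 itself the irradiated cells had lower cores than those 32, at 450.5 and 538.5 CPM. The 32 cells also enter the irradiation ratios of Vegfc-deleted endothelium given above. With irradiation 2 of 32 members were higher in Vegfc-deleted endothelium and 0 were lower, against 4.1% of genes higher (median 0.21 against -0.01 over all genes). The 2 were Isg15 (1.62, 1.44 to 1.81) and Ifi27l2a (2.42, 1.69 to 3.45). Neutrophil markers in the endothelial class were 128.5 CPM in the irradiated control and 2170 CPM in the irradiated Vegfc-deleted library. The part of such RNA in these ratios was not tested.

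**Figure D4:**
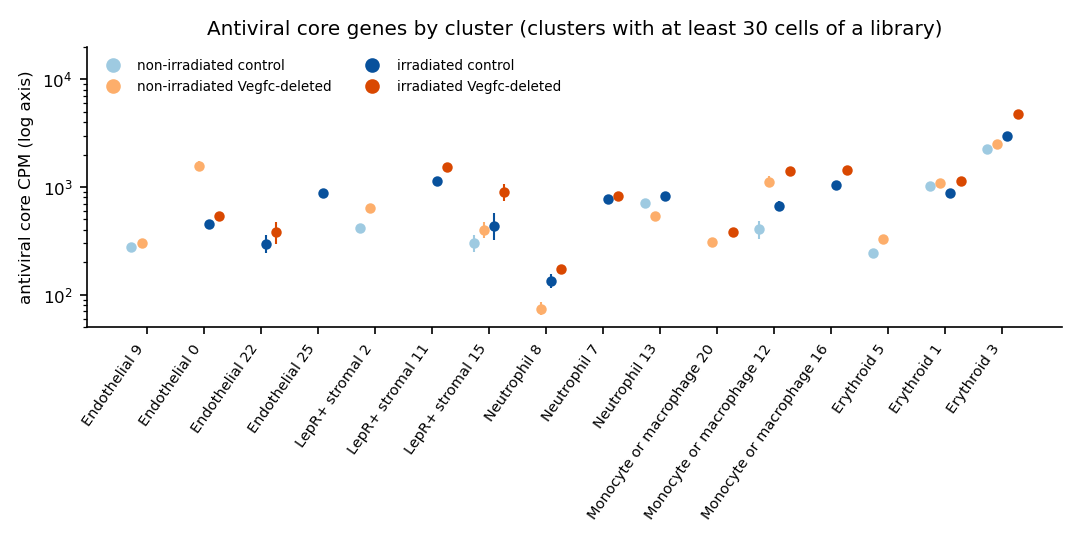
Antiviral core level (vertical axis, CPM on a log scale) in single clusters (horizontal axis), 1 point per library with exact Poisson intervals. The clusters include those of the endothelial and LepR+ classes. The 32 non-irradiated Vegfc-deleted cells of endothelial cluster 0 stand at 1567 CPM, above the irradiated cells of that cluster.

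The share of cells with a member tells whether many or few cells carried it. After each cell was thinned to 1500 UMIs, 7.49%, 8.82%, 21.8% and 24.5% of LepR+ cells had a UMI of Ifit1, Ifit2, Ifit3 or Ifit3b (1121, 703, 422 and 155 cells, with 18, 30, 38 and 32 shallower cells left out). Without thinning the shares were 25.6%, 29.2%, 47.4% and 44.4%. In endothelial cells they were 3.19%, 5.81%, 9.18% and 12.2% thinned. Erythroid cells gave 2.19%, 2.20%, 1.40% and 0.90%, at median depths of 6940 to 8696.5 UMIs against 6704 to 9283.5 in LepR+ cells. Ifit1 was 13.5 to 43.5 CPM in erythroid cluster 3 and at most 4.64 CPM in clusters 1 and 5. The part of RNA from other cells in the erythroid share was not tested.

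Iigp1 was broad in endothelium, with a UMI in 62.4%, 56.2%, 55.4% and 61.5% of thinned cells, and spread in LepR+ cells from 21.1% and 30.9% to 53.1% and 54.8%. Erythroid cells gave 0.20% to 0.51%. Bst2 was present in 26.9%, 33.4%, 40.8% and 56.1% of LepR+ cells and in 38.9%, 48.0%, 54.5% and 62.3% of endothelial cells. Irf1 was found in fewer cells after irradiation, from 44.4% and 44.4% to 25.8% and 15.5% of LepR+ cells and from 39.8% and 30.3% to 18.4% and 16.2% of endothelial cells. The core was nevertheless uneven, since the top 10% of LepR+ cells held 47.6%, 51.4%, 58.3% and 58.7% of its UMIs.

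**Figure D5:**
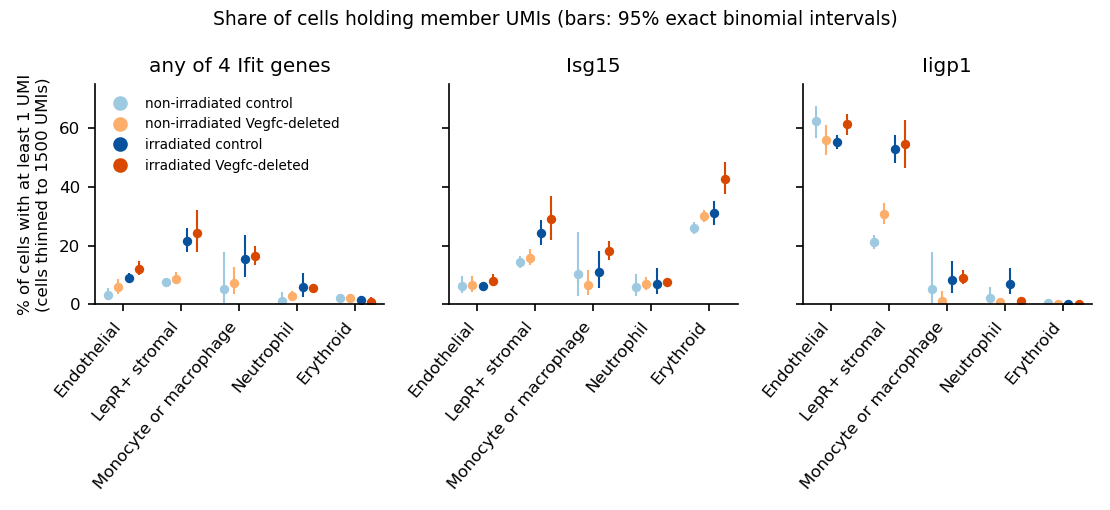
Percent of cells, each thinned to 1500 UMIs, with a UMI of the named members (vertical axis) by class and library, with exact binomial intervals. The classes include LepR+, endothelial and erythroid cells. The Ifit share of LepR+ cells goes from 7.49% and 8.82% without to 21.8% and 24.5% with irradiation, and erythroid cells stay at or under 2.20%.

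Blood cell classes behaved in several ways, and their clusters were filled unevenly by the libraries. In monocytes or macrophages (65, 196, 161 and 693 cells) the core was 490.5, 392.5, 787 and 1104 CPM. There 16 of 35 members were higher in irradiated controls (16% of genes) and 28 of 36 in irradiated Vegfc-deleted mice (19.1%), with Ifit1 at 16.4, 5.71, 40.4 and 61.9 CPM, Gbp7 at 26.0, 19.2, 119 and 139 CPM, and Ifitm2 on the other side at 862, 1179, 379 and 612.5 CPM. Thinned cells gave 2 of 6 and 15 of 32 members higher, and single clusters of the class had core levels from 307 to 1446 CPM. Cluster 16 held 5, 8, 50 and 301 cells, nearly all irradiated, while cluster 20 held 118 of the 196 non-irradiated Vegfc-deleted cells. In cluster 20 alone 10 of 33 members were higher and 5 lower in irradiated Vegfc-deleted mice (median 0.19, against 9.88% and 9.52% of genes), and in cluster 12 alone 18 of 34 were higher and 1 lower (21.4% and 10.7%). With irradiation 10 of 36 were higher in the Vegfc-deleted library (6.7% of genes), Isg15 being 105 and 191 CPM.

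Neutrophils (171, 560, 157 and 1219 cells) had 28 of 34 members higher in irradiated controls (24.6% of genes; 17 of 29 in cluster 13 alone, where 44.3% of genes were higher, and 6 of 8 counted when thinned) and 19 of 35 in irradiated Vegfc-deleted mice (11.3%). Ifitm1 measured 96.1, 107, 533 and 342.5 CPM and Ifitm3 measured 469, 545, 1388 and 1402 CPM, so the class levels were higher in both irradiated libraries. The libraries filled different clusters, however. Cluster 13 held 92 and 290 non-irradiated but 32 and 11 irradiated cells, and cluster 7 held 1 and 10 against 76 and 630. Within cluster 13, Ifitm1 was 244 CPM in the non-irradiated and 345 CPM in the irradiated control and Ifitm3 1039 and 1692 CPM. Within cluster 8, Ifitm1 was 0.722 and 57.6 CPM and Ifitm3 577 and 1398 CPM in the Vegfc-deleted pair. Iigp1 stood at 14.2, 3.35, 228 and 13.2 CPM. LepR+ markers in the neutrophil class were 2448, 1143, 6899 and 1761 CPM, also highest in the irradiated control, and their part in the Iigp1 level was not tested. With irradiation 22 of 35 members were lower in Vegfc-deleted neutrophils (26.7% of genes, median -0.66). Once cells with 5 or more UMIs of 9 stromal genes were left out, 5 of the members were lower and the median was -0.05.

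The B lineage (786, 786, 396 and 129 cells) held clusters that differed. In irradiated controls 6 of 34 members were higher and 6 lower over the class, near the 20.9% and 23.2% of all genes. In cluster 4 (424 and 346 control cells) 4 of 33 were higher and 12 lower (median -0.12). Of all genes in that cluster 20.9% were higher and 24.3% lower (median -0.05). In cluster 6 (353 and 50 cells) 16 of 19 members were higher and 2 lower (median 0.93), against 21.3% and 15.7% of genes in that cluster. In irradiated Vegfc-deleted mice 14 of 30 were lower (6 of 21 counted when thinned), against 26.3%. Irf1 was 89.7, 81.0, 46.6 and 29.2 CPM and Rsad2 was 35.6, 28.9, 6.81 and 1.42 CPM, each lowest in the irradiated libraries. Gbp7 ran the other way at 53.8, 57.8, 158 and 156 CPM. Osteolineage cells had at least 30 cells in the irradiated libraries alone (108 and 60 cells), with a core of 25.8 and 221 CPM. There 21 of 26 members were higher in the Vegfc-deleted library, against 10.1% of genes, and the top 10% of its cells held 89.7% of the core UMIs.

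Which class had the highest level differed between members and libraries. Among the 8 to 10 classes with at least 30 cells in a library, monocytes or macrophages held the highest level of 13 of the 36 members in the non-irradiated control, endothelial cells of 7 and LepR+ cells of 5. In the non-irradiated Vegfc-deleted library dendritic cells led for 8, LepR+ cells for 7 and T or NK cells for 6. In the irradiated control LepR+ cells held the highest level of 14, endothelial cells of 8 and monocytes or macrophages of 7. In the irradiated Vegfc-deleted library these counts were 11, 8 and 9. Ifit3, Stat2, Ifi44, Usp18 and Iigp1 were highest in LepR+ cells in both irradiated libraries and in neither non-irradiated one, whereas Gbp2 was highest there in all 4. Dendritic cells reached 30 cells only in the non-irradiated Vegfc-deleted library (42), so the classes compared were not the same. There they led for Stat2 (123 CPM, with LepR+ cells second at 47.6) and Ifi44 (60.4 CPM, with LepR+ cells second at 41.85). In the non-irradiated control Stat2 was 37.0 CPM in monocytes or macrophages and 36.3 in LepR+ cells.

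Interferon genes had few or no counts outside T or NK cells. Blood cells here are those that escaped the sort, so levels in the marrow as a whole are not given. Of 73 further pathway genes listed, 72 were found. Ifnb1 and the listed Ifna and Ifnl genes had 0 counts in each of the 11 classes, which in LepR+ cells allows levels of up to 0.291, 0.481, 0.676 and 2.02 CPM. Ifng, the interferon-gamma gene, had 36, 94 and 400 counts in T or NK cells of the non-irradiated Vegfc-deleted and both irradiated libraries, or 143, 183 and 150 CPM, and at most 7 counts in any other class of a library. The T or NK class held 0, 36, 44 and 333 cells, so the count differed more between libraries than the CPM did.

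The receptors were present in both niche classes. Ifngr1 measured 263, 268, 468 and 453 CPM in LepR+ cells and 238, 217, 322 and 357 CPM in endothelium. Ifngr2 in LepR+ cells was 102, 98.1, 96.6 and 82.3 CPM. For type I interferon, Ifnar1 was 53.7, 55.5, 64.6 and 50.6 CPM and Ifnar2 was 256, 249, 209 and 202 CPM in LepR+ cells. Socs1, an inhibitor of the receptor kinases, was lower in the irradiated libraries, as Irf1 was, at 84.4, 75.1, 54.5 and 18.2 CPM in LepR+ cells and 51.9, 45.4, 27.9 and 11.2 CPM in endothelial cells.

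Over the whole pathway list, 34 of 57 genes were higher and 3 lower in LepR+ cells of irradiated controls (19.2% and 10.3% of all genes), and 21 of 55 and 5 in Vegfc-deleted mice (19.9% and 12.6%). In endothelium the counts were 19 of 57 higher with 5 lower (18.3% and 8.71%), and 15 of 57 with 7 lower (15.2% and 8.27%). The largest ratios common to both genotypes in endothelial cells were those of Slfn2, a gene of the Schlafen family, at 1.58, 6.56, 38.6 and 65.9 CPM, and Gbp4, at 21.5, 23.9, 101 and 104 CPM. In LepR+ cells they were Gbp6, at 2.32, 4.17, 20.7 and 12.8 CPM, and Slfn2, at 2.61, 11.1, 9.01 and 31.7 CPM. Without irradiation, 8 of 55 were higher and 0 lower in LepR+ cells of Vegfc-deleted mice (3.17% and 5.02%). With irradiation 4 of 56 were higher and 9 lower, near the 9.54% and 12.6% of all genes.

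Members with and without an ISRE core are set side by side as a description. In LepR+ cells of irradiated controls 14 of the 16 counted members with an ISRE core were higher (median log2 ratio 1.34) and 9 of 11 without one (0.98). In endothelial cells of controls it was 7 of 16 with a core (0.53) and 6 of 10 without (0.82). In Vegfc-deleted mice it was 13 of 16 with a core (0.91) and 7 of 11 without (0.78) in LepR+ cells, and 6 of 16 (0.42) and 2 of 10 (0.35) in endothelial cells. Irf1, which was lower in irradiated LepR+ cells, has a GAS core and no ISRE core in the window printed above. Bst2 and Igtp, which were higher in those cells, have both. A link between site content and direction was not tested.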

How the data were processed

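Single-cell 3' RNA libraries from sorted cells of tibial bone marrow were analysed, 1 per group. Each deposited matrix is of whole UMI counts (genes by barcodes) that were not normalized. Cell Ranger 2.1.1 and mm10 are named in the submitters' processing notes, but software 3.1.0 is written in the header. Options used for counting are not given.

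Barcodes with under 500 genes or over 10% mitochondrial UMIs were left out, then the highest Scrublet scores at 0.8% per 1000 barcodes (211 to 479 a library). Median depth of the kept cells was 7635.5 to 9874 UMIs. Cells were clustered over all libraries (scanpy 1.11.5, leidenalg 0.10.2; 2000 variable genes, 40 components, 20 neighbours, resolution 1, seed 7) with no batch correction, and clusters were named from marker lists by log2 ratios with 10 CPM added, a setting adopted after the first clusters were seen. An osteoclast list was added then too, and its cluster stayed unnamed.

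UMIs of each class in a library were added up and given as CPM with exact Poisson intervals. Ratios have exact conditional intervals and shares exact binomial ones, at 95%, and these cover counting error alone. Log2 ratios used a prior of 0.5 counts. A gene entered a contrast with 30 counts over both libraries and a class with 30 cells in each. Any member could be named. Values in all libraries are given for 15 members fixed by rule and for the 4 largest and 2 smallest log2 ratios of irradiation, taking from the genotypes the one nearer to 0, with the 4 highest of the other pathway genes. TMM factors came from edgeR 4.0.16 and served as an alternative. One pathway gene named by these rules is not reported here. The counting of ratios was tested on simulated data. The members and lists were chosen with earlier results of these data known.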

Additional observations from a re-analysis of the deposited data

Results flagged for a closer look

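The irradiation ratio of a member had opposite signs in the genotypes in 33 of 201 pairs of a member and a class with enough counts, 4 of them endothelial. In 3 of the 33, all in blood cell classes, both ratios also passed 1.5-fold, and these are given here. The same counts over all genes were not made, so whether these are many or few is not known. With 1 library per group, the difference between genotypes was not tested. Iigp1 in the B lineage had a log2 ratio of 0.68 in controls and -0.98 in Vegfc-deleted mice, a difference of -1.66 (Vegfc-deleted minus control), at 11.04, 16.2, 17.8 and 8.02 CPM. In monocytes or macrophages Ifi44 had log2 ratios of -0.67 and 2.79, a difference of 3.46, at 16.4, 4.08, 10.5 and 29.6 CPM. Ifitm1 in the same class had log2 ratios of -0.91 and 2.67, a difference of 3.58, at 17.8, 5.71, 9.66 and 37.6 CPM. The non-irradiated control counts were 12 (Ifi44) and 13 (Ifitm1), with 7 and 8 of them in the highest cell. Without the highest cell of each library the log2 ratios were 0.34 and 3.21 for Ifi44 and -0.04 and 2.79 for Ifitm1. Neither gene then had opposite ratios that passed 1.5-fold. The monocyte class held 65 cells in the non-irradiated control, and neutrophil markers in it were 13240, 1645, 3871 and 10730 CPM, high in the same 2 libraries as Ifitm1, whose part in the result was not tested.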

How the results depend on the processing

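No paired analysis was possible because each group is 1 library. Of 296 values of lists under alternatives, 255 stayed within the limits set for them, 40 moved beyond 1.5 times or the interval of the main value, and 1 reversed. Of 1046 values of single members, core sums and shares of cells, 898 stayed, 143 moved and 5 reversed. The 116 under the count minimum of 10 could not move, as that setting leaves the ratio of a member unchanged. Under thinning to 1500 UMIs 60 moved and 56 stayed. All 8 shares of cells moved when thinned to 3000 UMIs, and all 8 without thinning. The causes were not tested. Alternatives restricted to 1 cluster, to cells with few stromal or few other-cell UMIs, or without the highest cell were added after the data were seen.

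In LepR+ cells, TMM scaling gave a median of 0.89 in irradiated controls. Cluster 15 alone, the small LepR+ cluster present in all libraries, had 5 of 8 counted members higher and 1 lower for the control pair. Their median was 1.14. Of all genes in that cluster 24.5% were higher and 24.7% lower, with a median of 0.002. For the Vegfc-deleted pair, 7 of 13 members were higher and 3 lower, with a median of 0.64. All genes of that pair had a median of -0.54 in cluster 15, with 28.8% higher and 49.05% lower. There Stat2 reached -0.001 in controls and -1.07 in Vegfc-deleted mice, Ifitm2 reached 1.78 in controls, and Gbp2 and Iigp1 reached -0.10 and -0.34 in Vegfc-deleted mice. By genotype with irradiation, 8 LepR+ members were higher in cells with few other-cell UMIs and 9 when thinned. In endothelium, genotype gave 3 higher without irradiation in cluster 9 and 2 when thinned, and with irradiation 4 at a count minimum of 10 and 1 in cells with few other-cell UMIs.

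In monocytes or macrophages, cluster 12 alone gave 10 members higher in irradiated controls, 18 in irradiated Vegfc-deleted mice (median 0.62) and 23 by genotype with irradiation (0.82). Of all genes in that cluster 21.2%, 21.4% and 12.6% were higher. Thinning gave 2 of 6 counted (median -0.38) and 15 of 32 (0.58) after irradiation. Clustering without interferon genes and resolution 2 each gave 6 by genotype. In neutrophils, irradiated controls had 17 members higher in cluster 13 (median 0.70) and 6 of the 8 counted when thinned. Irradiated Vegfc-deleted neutrophils had a median of 1.19 in cluster 8 and 1.14 when clustered without interferon genes. By genotype with irradiation, the members lower in neutrophils numbered 11 under TMM (median -0.28), 6 in cluster 7 (0.03, reversed), 8 when clustered without interferon genes (-0.071), 5 with few stromal UMIs (-0.049), 8 at a mitochondrial limit of 5% (-0.047), 9 with doublets kept (-0.17), 8 at resolution 2 (-0.07) and 11 when thinned. In the B lineage, 6 were lower of the 21 counted in irradiated Vegfc-deleted mice when thinned.

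Cells with few other-cell UMIs gave no value for contrasts with the non-irradiated libraries, nor for neutrophils. Monocytes gave none for irradiated controls with doublets kept, at resolution 2, when clustered without interferon genes or at the mitochondrial limit of 5%, and none for irradiated Vegfc-deleted mice with doublets kept.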

Other observations

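Erythroid cells held a part of the members unevenly. Isg15 measured 297, 337, 500.3 and 960 CPM there and Rsad2 388, 368, 996 and 776 CPM, while Ifit3 stayed at or under 0.291 CPM and Iigp1 at or under 3.42 CPM. The clusters differed and were filled unevenly: cluster 5, with a core of 245.5 and 331 CPM, held 540, 627, 5 and 2 cells. In cluster 1, the one with the most cells (777, 696, 281 and 204), Rsad2 was 457, 445, 433 and 375 CPM and Isg15 433, 495, 369 and 671.5 CPM, so the class levels of Rsad2 were not repeated there. In erythroid cluster 3 the antiviral core was 2245, 2512, 2962 and 4743 CPM, with Rsad2 at 1360, 1426, 2006 and 2309 CPM. A UMI of Rsad2 was present in 64.9%, 61.9%, 73.5% and 59.7% of erythroid cells, so the level was spread over many cells.

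Megakaryocytes stood apart in Igtp, at 370.4, 284, 118 and 132 CPM, lower in both irradiated libraries while their core was 135, 215, 493 and 1076 CPM. The 42 dendritic cells of the non-irradiated Vegfc-deleted library held Bst2 at 4441 CPM and Irf7 at 221 CPM. Basophils or mast cells held Ifitm1 at 2477 CPM in the non-irradiated and 1031 CPM in the irradiated control.

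Pericytes or smooth muscle cells were too few for the comparisons (18, 16, 14 and 7 cells). Their Rsad2 UMIs numbered 4, 0, 308 and 99, of which 299 of the irradiated control and 98 of the irradiated Vegfc-deleted UMIs were in 1 cell each. Isg15 UMIs there numbered 29, 17, 113 and 50, with 81 and 47 of the irradiated UMIs in the highest cell.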
